A study of Mus musculus with 9 samples.

Results

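Circles shared by adult and neonatal mouse hearts and without a read in embryonic hearts were described here. A circle entered this set when it had 2 or more split reads in at least 1 library of 8-week hearts (8w) and in at least 1 library of postnatal day 3 hearts (3d), and 0 split reads in all 3 libraries of embryonic day 18 hearts (E18). Of the 149584 distinct circles in the deposited table, 1458 met this rule, and these are called members below. The same rule with the stages exchanged took 3619 circles shared by E18 and 3d without a read at 8w, and 454 shared by E18 and 8w without a read at 3d. The members were thus chosen by their split read counts, and those counts are given as a description and were not tested.

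The circles are extrachromosomal circular DNA (eccDNA), closed double-stranded rings cut or copied out of the chromosomes and kept beside them in the nucleus. Short eccDNA is found in most tissues, derives from nearly all parts of the genome, and is commonly linked to DNA damage, repair and chromatin fragmentation, with lengths that often follow the wrapping of DNA around nucleosomes. Such rings have no centromere and are not passed on evenly when a cell divides, and the heart muscle cell of the mouse largely stops dividing soon after birth.

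The assay was Circle-seq, in which linear DNA is removed, the remaining rings are copied with phi29 polymerase, and reads that run across the junction where a ring closes (split reads) are counted. The 9 libraries came from wild type C57BL/6J mice, with 3 libraries each from embryonic hearts at E18, neonatal hearts at 3d and adult hearts at 8w, labelled as biological replicates. The labels name heart as the tissue and cardiocytes as both the cell type and the cell line, so the starting material may have been the whole organ or cells isolated from it, and an assay of circular DNA gives no marker expression against which the cell type could be checked. The sources used here do not say how many animals went into a library.

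The libraries held 63710 to 846374 split reads at E18, 310110 to 665303 at 3d and 11377 (replicate 1), 194280 (replicate 2) and 67182 (replicate 3) at 8w. A pair of libraries stood apart. In 8w replicate 1, 60.5% of the circles rested on 1 split read, and in 3d replicate 1 37.9% did, against 6.21% to 16.7% in the other 7 libraries. Both of these libraries supplied members, and without 8w replicate 1 the rule took 1221 circles, without 3d replicate 1 it took 771. Phi29 copies one ring many times, so split reads are not independent molecules, and the Wilson 95% intervals and the limits for a count of 0 given below cover counting error only.

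Among 32851 windows around RefSeq gene starts (250 bases before to 50 after), 5 of the 1458 members met one and 2 of these covered the start itself. The share of other circles that meet such a window was not computed, so whether 5 is many or few cannot be said. The windows of these members are the stretches for which sequence was at hand. Of these, 4 are shown to place members against gene starts, letter by letter, with the 2 whose start is covered first. Each is the RefSeq sequence of GRCm38.p6, read 5′ to 3′ on the strand of the gene, and the capitals mark the bases that the circle carries.
Gm38926 (minus strand, chr6:145348356-145348655): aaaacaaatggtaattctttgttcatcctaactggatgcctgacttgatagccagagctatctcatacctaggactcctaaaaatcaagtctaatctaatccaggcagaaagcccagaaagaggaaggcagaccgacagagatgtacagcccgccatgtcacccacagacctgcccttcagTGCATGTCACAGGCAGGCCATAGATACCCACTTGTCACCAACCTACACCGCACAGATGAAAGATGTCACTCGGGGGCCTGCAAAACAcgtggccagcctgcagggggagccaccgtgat
Ugt1a1 (plus strand, chr1:88211709-88212008): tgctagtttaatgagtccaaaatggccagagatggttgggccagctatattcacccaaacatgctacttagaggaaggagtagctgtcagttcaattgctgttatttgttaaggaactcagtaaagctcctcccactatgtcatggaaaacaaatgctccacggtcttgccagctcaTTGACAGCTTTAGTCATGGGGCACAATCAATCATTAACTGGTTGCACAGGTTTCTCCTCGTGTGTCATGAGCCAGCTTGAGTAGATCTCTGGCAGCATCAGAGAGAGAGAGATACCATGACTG
Gm6358 (plus strand, chr16:89140694-89140993): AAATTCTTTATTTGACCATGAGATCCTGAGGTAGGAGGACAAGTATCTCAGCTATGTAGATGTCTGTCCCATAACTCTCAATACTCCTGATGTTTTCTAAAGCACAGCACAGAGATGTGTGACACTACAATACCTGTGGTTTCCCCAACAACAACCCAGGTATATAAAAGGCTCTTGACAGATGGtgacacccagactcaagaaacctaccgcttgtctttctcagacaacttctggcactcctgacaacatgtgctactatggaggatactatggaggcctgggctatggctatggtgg
Ndrg3 (minus strand, chr2:156992062-156992361): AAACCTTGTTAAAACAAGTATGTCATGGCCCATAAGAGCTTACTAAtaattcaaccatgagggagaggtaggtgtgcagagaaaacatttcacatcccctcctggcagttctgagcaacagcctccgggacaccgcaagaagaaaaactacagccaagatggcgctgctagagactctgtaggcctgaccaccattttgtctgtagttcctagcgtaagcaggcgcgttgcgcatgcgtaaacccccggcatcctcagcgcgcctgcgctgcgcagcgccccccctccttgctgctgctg

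The first window held a whole member. That circle, chr6:145348388-145348474, was 87 bp long, spanned the start of the predicted gene Gm38926, and its bases were 52.9% G or C. The bases at the ends of this ring did not continue in a direct repeat (0 bases). It had 24 split reads in 8w replicate 2 and 2 in 3d replicate 2, and none in the other 4 postnatal libraries. The second window carried the first 123 bases of a 910 bp member, chr1:88211886-88212795, which crossed the start of Ugt1a1, the liver enzyme that conjugates bilirubin, and lay inside the long transcription units of the 8 other Ugt1a genes listed for it. This member had 2 split reads in 8w replicate 1 and 7 in 3d replicate 1.

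The other windows were only touched by a member. The 411 bp circle at chr16:89140468-89140878 carried the outermost 185 bases of the window of the predicted gene Gm6358, with 27 split reads in 8w replicate 2 and 3 in 3d replicate 1. The 635 bp circle at chr2:156992316-156992950 carried the outermost 46 bases of the window of Ndrg3, a member of the N-myc downstream regulated family, with 3 split reads in 8w replicate 3 and 73 in 3d replicate 3. A 398 bp circle inside Frmd4a, a scaffold protein of epithelial junctions, met the window of Gm52545 over 31 bases and had 2 split reads in 8w replicate 3, against 2 and 10 in 3d replicates 1 and 3. All 5 members had the bulk of their reads in a single library.

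Members were a larger share of the adult libraries than of the neonatal ones. Among circles with 2 or more split reads, members made up 15.8% of 8w replicate 1 (246 of 1554, 95% interval 14.1% to 17.7%), 5.88% of 8w replicate 2 (806 of 13697, 5.50% to 6.29%) and 7.47% of 8w replicate 3 (423 of 5662, 6.81% to 8.18%). In the neonatal libraries they made up 3.64% of 3d replicate 1 (728 of 20007, 3.39% to 3.91%), 1.33% of 3d replicate 2 (320 of 24144, 1.19% to 1.48%) and 1.16% of 3d replicate 3 (457 of 39532, 1.06% to 1.27%). Every adult share lay above every neonatal share, and the number of circles that the shares were taken of was lower in each adult library. The rule places each member at both stages, so the order of the shares and these numbers of circles cannot be told apart. Members held 8.24%, 5.91% and 5.61% of the split reads of the 8w replicates and 1.47%, 1.08% and 0.845% of those of the 3d replicates.

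The set was sparse. Of the 1458 members, 1397 had 2 or more split reads in exactly 1 adult and 1 neonatal library, 42 in 1 adult and 2 neonatal libraries, 2 in 1 adult and 3 neonatal libraries, and 16 in 2 adult libraries and 1 neonatal library. A single member had 2 or more split reads in 2 libraries of both stages, and none did in all 3 libraries of 8w. Counting any read, 1240 members (85.0%) were seen in 2 libraries, 203 in 3 and 15 in 4, so none was seen in more than 4 of the 6 postnatal libraries.

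Which libraries met in a member varied widely. 8w replicate 2 shared 449 members with 3d replicate 1, 156 with 3d replicate 2 and 230 with 3d replicate 3. 8w replicate 3 shared 207, 103 and 125 with the same 3 neonatal libraries, and 8w replicate 1 shared 87, 64 and 102. The pair of 8w replicate 2 and 3d replicate 1 shared the most, and without 8w replicate 2 the rule took 664 circles. The length of the members differed between pairs, with medians of 366, 351.5 and 396.5 bp for those of 8w replicate 1, 135, 130.5 and 144 bp for those of 8w replicate 2, and 107, 166 and 367 bp for those of 8w replicate 3, each with 3d replicates 1 to 3 in order.

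**Figure D1:**
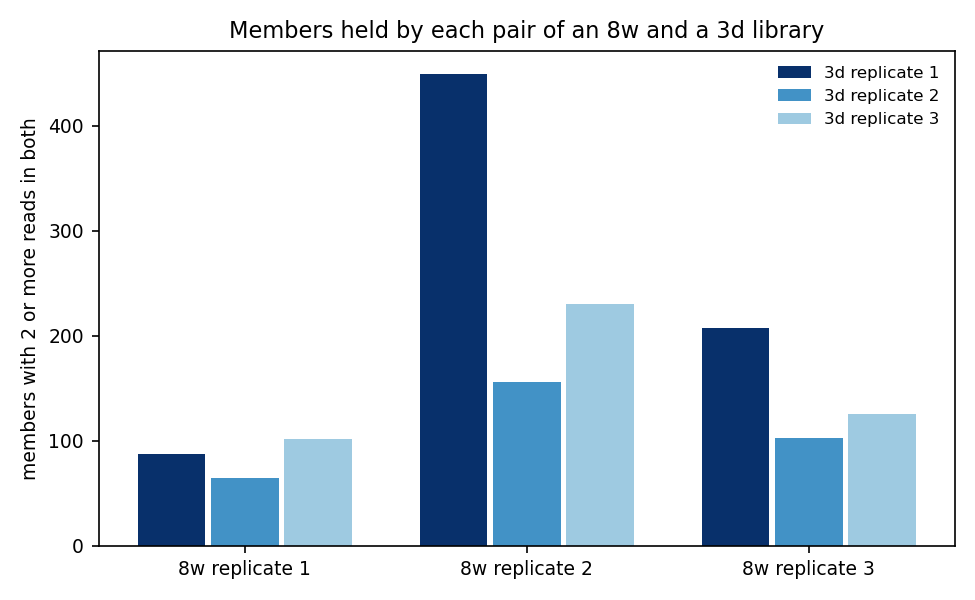
Number of members with 2 or more split reads in both libraries of each pair, with the adult (8w) library on the horizontal axis and the neonatal (3d) library by shade. The tallest bar is 8w replicate 2 with 3d replicate 1 (449 members), and the lowest is 8w replicate 1 with 3d replicate 2 (64 members).

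Most members had more split reads at 8w. With the highest library of each stage taken, 925 members (63.4%) had more reads at 8w, 473 (32.4%) had more at 3d and 60 had equal numbers. The stages were within 5 times of each other in 871 members (59.7%), while 400 members had at least 5 times as many reads at 8w and 187 at least 5 times as many at 3d. The lower stage had exactly 2 reads, the minimum of the rule, in 803 members (55.1%). Scaled to the split reads of the library, the balance moved further to the adult side, with 1334 members higher at 8w and 124 higher at 3d. Every 8w library held fewer split reads than any 3d library, so the minimum of 2 reads scales to a higher value at 8w. The part of depth in this balance was not tested.

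The members with the most reads were nearly all neonatal. The highest was a 326 bp circle outside the annotated genes at chr4:132306419-132306744, with 0, 1 and 2 split reads in 8w replicates 1 to 3 and 0, 423 and 1 in 3d replicates 1 to 3. Of the 10 members with the most reads, 9 followed this pattern of many reads in 1 neonatal library and no more than 5 in any adult library. Examples inside genes were a 363 bp circle in Ccdc83, which codes for a coiled-coil protein, with 2 reads in 8w replicate 3 and 157 in 3d replicate 3, and a 774 bp circle in Ttc13, which codes for a tetratricopeptide repeat protein, with 3 reads in 8w replicate 3 and 110 in 3d replicate 3. The exception was a 173 bp circle at chr4:51835650-51835822, with 44 reads in 8w replicate 2 and 160 in 3d replicate 3.

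**Figure D2:**
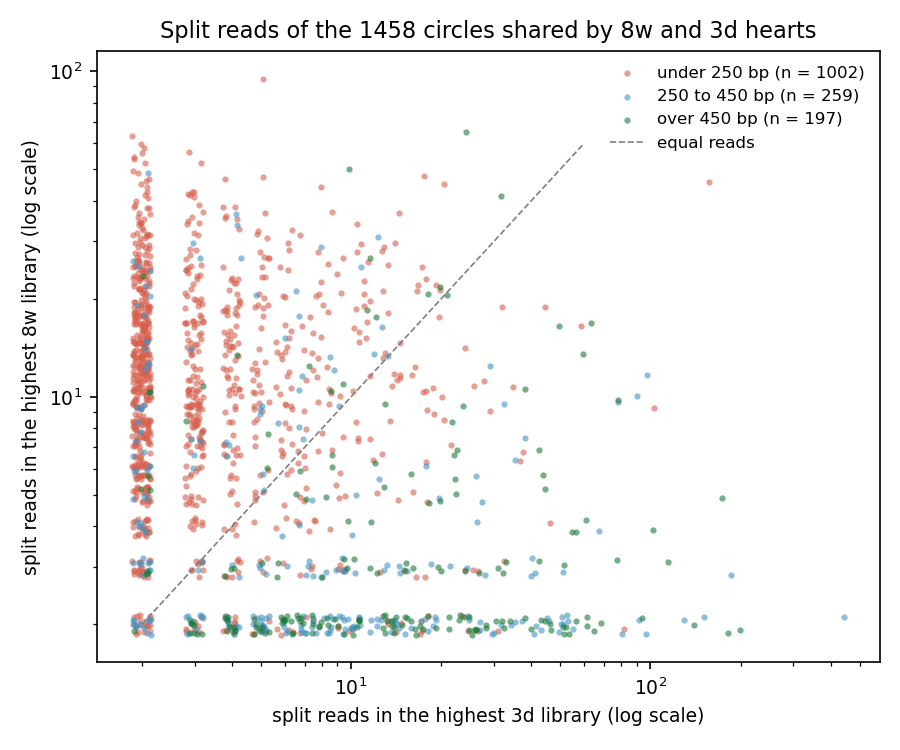
Split reads of each of the 1458 members in its highest adult library (vertical) and its highest neonatal library (horizontal), both on log scales, with points moved by up to 7% so that equal counts can be seen and with the colour giving the length of the circle. Members under 250 bp lie mostly in the columns of 2 to 4 neonatal reads, and longer members lie mostly in the rows of 2 and 3 adult reads.

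Members well supported at both stages were a minority. With 5 or more split reads in a library of each stage 280 members were left, and with 10 or more 77 were left, of which 54 were under 250 bp. The genes and regions of this group that are named here were chosen after their values were seen. Inside Mgat5, the enzyme that starts a branch on N-linked sugar chains, a 634 bp circle had 44 reads in 8w replicate 3, against 1 in 3d replicate 1 and 30 in 3d replicate 3. In Usp6nl, a GTPase-activating protein for Rab proteins, a 781 bp circle had 65 reads in 8w replicate 2, against 1 and 25 in 3d replicates 2 and 3. A 3209 bp circle in Dagla, the lipase that makes an endocannabinoid, had 16 reads in 8w replicate 2 and 48 in 3d replicate 3 and was among the 3 longest members.

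Further well supported members lay in genes of varied function. A 506 bp circle in Clspn, the replication checkpoint protein claspin, had 14 reads in 8w replicate 2 and 63 in 3d replicate 3. A 1407 bp circle in Anapc1, the largest subunit of the anaphase-promoting complex, had 20 reads in 8w replicate 2, against 9 in 3d replicate 1 and 19 in 3d replicate 2. In Boc, a co-receptor of hedgehog ligands, a 644 bp circle had 18 reads in 8w replicate 2 and 66 in 3d replicate 3, and in Gli3, a transcription factor of the same pathway, a 181 bp circle had 21 reads in 8w replicate 2 and 17 in 3d replicate 3. These circles were each strong in 1 adult and 1 or 2 neonatal libraries and at or near 0 in the others.

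The circles seen in the most libraries were mostly not those with the most reads. The 15 members with a read in 4 libraries included the 326 bp circle above, and the 10 of them with the most summed reads were looked at. A 77 bp circle in Dlc1, a GTPase-activating protein, had 1, 14 and 2 split reads in 8w replicates 1 to 3, against 2, 0 and 0 in 3d replicates 1 to 3, and was the only 1 of the 10 with a read in every adult library. A 251 bp circle at chr15:100571973-100572223 had 8, 0 and 3 adult reads against 38, 1 and 0 neonatal reads. In both, at least 1 of the 4 libraries held no more than 1 read.

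The set fell into 2 length classes. Members were 40 to 3763 bp long, with a median of 144 bp and quartiles of 102 and 355.75 bp. Circles under 250 bp numbered 1002 (68.7%), those of 250 to 450 bp 259 (17.8%), those of 451 to 1000 bp 152 and longer ones 45. The commonest length was 90 to 99 bp (129 members), a second peak lay at 350 to 359 bp (36 members), and 1 member was 300 to 309 bp long. The shortest members were a 40 bp circle on chromosome 18, a 44 bp circle in Wdr19, a component of the transport machinery of cilia, and a 46 bp circle in Dock9, an activator of Cdc42. The Wdr19 circle had 5 split reads in 8w replicate 3 and 7 in 3d replicate 2.

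The 2 classes followed the stage that held more of the reads. Members with more reads at 8w had a median of 123 bp, and 89.0% of them were under 250 bp. Members with more reads at 3d had a median of 373 bp, and 29.0% were under 250 bp. The 400 members with at least 5 times as many reads at 8w had a median of 114 bp, the 871 within 5 times a median of 149 bp, and the 187 with at least 5 times as many at 3d a median of 400 bp. Reads are part of the rule, so these values are a description.

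**Figure D3:**
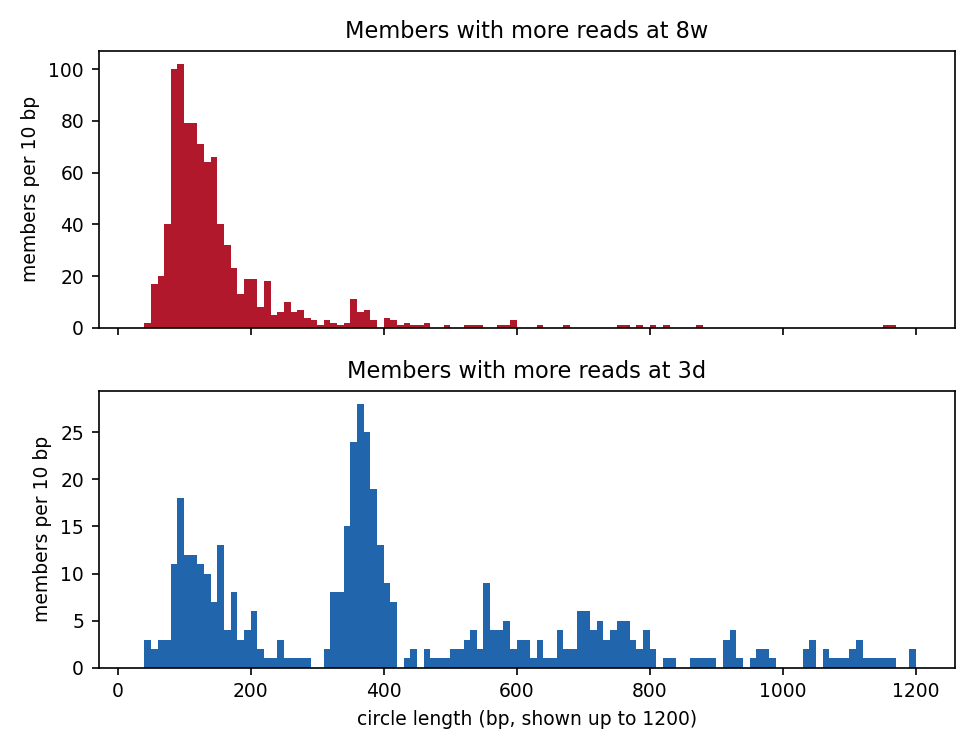
Lengths of the members in bins of 10 bp, with the longest members beyond the axis, for the 925 members with more split reads at 8w (upper panel) and the 473 with more at 3d (lower panel), with the vertical axes on different scales. The upper panel has 1 main peak near 100 bp, and the lower panel has a peak near 100 bp and a taller one between 350 and 380 bp.

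Within a library, the weakly and the strongly counted members differed in length, and in opposite ways at the 2 stages. In 8w replicates 1 to 3, members with exactly 2 reads there had medians of 415, 158 and 381 bp (n = 153, 49 and 108), and members with 10 or more had medians of 190, 129 and 101 bp (n = 15, 473 and 150). In 3d replicates 1 to 3, members with exactly 2 reads had medians of 128, 114.5 and 137 bp (n = 425, 56 and 81), and those with 10 or more had medians of 550, 339 and 386 bp (n = 60, 111 and 141). Weakly counted members were thus the longer ones in every adult library and the shorter ones in every neonatal library. Counts of exactly 2 were commoner among members than among the library's other circles with 2 or more reads, whatever their E18 reads. The shares were 62.2% against 23.6%, 6.08% against 3.26% and 25.5% against 5.44% in the 8w replicates. In the 3d replicates they were 58.4% against 19.7%, 17.5% against 7.09% and 17.7% against 7.26%. Whether the weakly counted reads came from rings of that library or reached it from a library of the other stage was not tested, so for these members presence at the lower stage rests on 2 reads.

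Circles just outside the rule had medians close to those of the weakest members. With a single read at 8w, 2 or more at 3d and 0 in E18 there were 1873 circles with a median of 388 bp, and members with at most 2 reads at 8w (302) had a median of 382 bp. With a single read at 3d and 2 or more at 8w there were 1921 circles with a median of 120 bp, and members with at most 2 reads at 3d (532) had a median of 124 bp. A further 153 circles had 2 or more reads at both postnatal stages and were kept out by a read in E18, of which 64 had at most 1 read in any E18 library. With the same split reads in every library (thinned to 11377 each) the rule took 45 circles, against 14 for E18 with 3d and 31 for E18 with 8w.

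To see whether the members differed from other circles in measures other than counts, each library's members were set against its other circles with 2 or more split reads and none in E18. Depth, read minimum and absence from E18 were thus shared. The difference was tested over the 6 libraries with an exact two-sided sign-flip permutation test, adjusted by Benjamini-Hochberg over 6 measures, with 0.03125 as the smallest raw p. A member enters at least 1 library of each stage, so the 6 differences are not independent. Read counts above the minimum were not matched, and counts of exactly 2 were commoner among members, as given above. The part of read counts in these differences was not tested. None of the 6 measures passed after adjustment, and a measure alone at the smallest raw p could not, since it adjusts to 0.188.

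Median length was 374, 137 and 127 bp for members in 8w replicates 1 to 3, against 121, 131 and 99 bp for the other circles. In 3d replicates 1 to 3 it was 132, 150 and 207 bp for members, against 388, 368 and 416 bp for the others. Members were thus longer than the other circles in all 3 adult libraries, by 95.7 bp on average (SD 137, n = 3), and shorter in all 3 neonatal ones, by a difference of -228 bp (SD 24.9, n = 3). Averaged over the 6 libraries the difference was -66.0 bp (SD 198, exact sign-flip p = 0.594, adjusted 0.788). The difference at 8w minus that at 3d was 323 bp (exact permutation test of 3 against 3 libraries, p = 0.1, the smallest possible, adjusted 0.2). A member found in an adult library had also to be found in a neonatal one, and the libraries of the 2 stages differ in length, so this opposition and the stages' own lengths cannot be told apart.

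**Figure D4:**
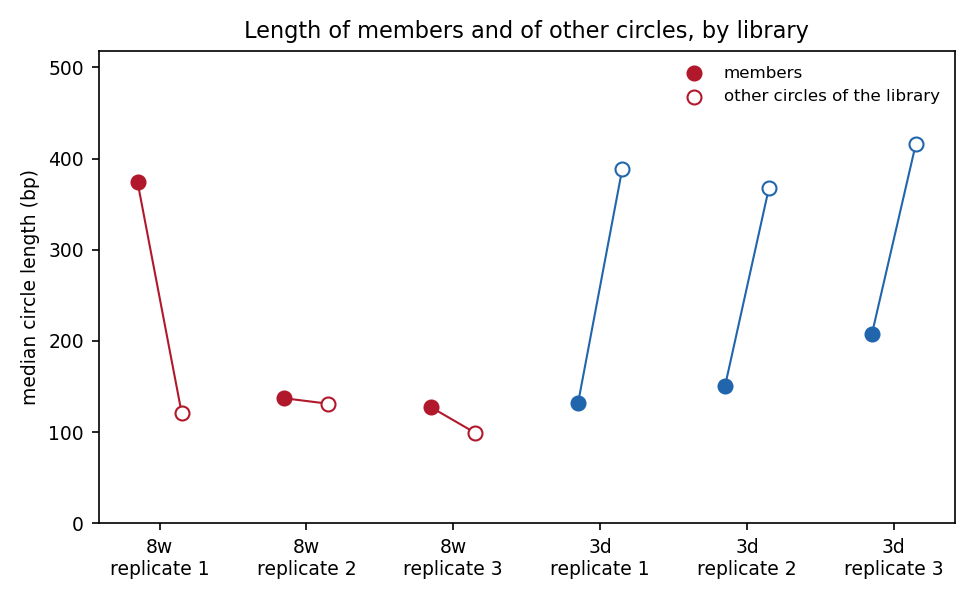
Median length in bp of the members (filled) and of the other circles with 2 or more split reads and none in E18 (open) in each library, with 8w in red and 3d in blue and a line joining the 2 values of a library. Members lie above the other circles in the 3 adult libraries and between 132 and 207 bp, far below them, in the 3 neonatal libraries.

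The share under 250 bp gave the same picture, with the same limit. It was 30.5%, 83.4% and 63.6% for members in the 8w replicates, against 86.9%, 94.5% and 97.2% for the others, and 79.5%, 64.7% and 53.2% for members in the 3d replicates, against 7.62%, 27.05% and 6.46%. The mean difference over 6 libraries was 9.20 percentage points (exact sign-flip p = 0.656, adjusted 0.788), with -33.7 points at 8w and 52.1 at 3d, and 8w minus 3d was -85.8 points (exact permutation p = 0.1, adjusted 0.2).

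The members' own lengths were also set side by side between the stages. Every member is in at least 1 library of each stage, so both sides draw on the same circles. The test below therefore cannot decide whether the stages differ in length. The median over a library's members averaged 213 ± 140 bp at 8w and 163 ± 39.2 bp at 3d (SD, n = 3 each), a difference of 49.7 bp (exact two-sided permutation test, p = 0.9). Weighted by split reads it averaged 186 bp at 8w and 355 bp at 3d, a difference of -170 bp, given as a description because the reads are part of the rule. A comparison added after the data were seen took circles that the same library shared with E18 and that had no read at the remaining stage. Against these, members had a shorter median in 5 of 6 libraries, by -119 bp on average (exact sign-flip p = 0.0625, adjusted over 2 measures 0.125). The difference averaged -28.5 bp at 8w (SD 44.2) and -210 bp at 3d (SD 33.7). Members had also to be found at the other postnatal stage, so this difference and the stages' own lengths cannot be told apart. Without 3d replicate 1 the average over libraries was -55.8 bp (exact sign-flip p = 0.438).

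Members lay in genes about as often as other circles. In the annotation of the deposited table, which holds protein-coding genes, 620 members (42.5%) overlapped a gene and 619 of them lay wholly inside it. The share in a gene was 41.9%, 43.9% and 40.4% for members in the 8w replicates, against 38.5%, 38.7% and 37.5% for the other circles, and 42.5%, 40.6% and 44.4% in the 3d replicates, against 41.2%, 44.3% and 43.9%. Members were higher in 5 of 6 libraries, with a mean difference of 1.61 percentage points (SD 3.09, exact sign-flip p = 0.25, adjusted 0.75). The difference at 8w minus that at 3d was 4.52 points (exact permutation p = 0.1, adjusted 0.2). Members spread over the chromosomes much as did the other circles with 2 or more reads in a postnatal library and none in E18. There were 120 on chromosome 1 (8.23%, against 7.79%), 49 on X (3.36%, against 3.85%) and 0 on Y, which allows a share of up to 0.206%, against 0.0309%.

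The 620 members fell in 574 genes, of which 59 held 2 or more and 9 held 3 or more. The genes with 2 or more were long, with a median of 403 kb, against 106 kb for those with 1 member and 30.03 kb for the 14048 genes with a circle in any library.

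Dock9 held 4 members on both the table's annotation and RefSeq's, with circles of 46 to 244 bp and 61 split reads in a gene of 256 kb. A pair of them, 91 and 46 bp long, began 1 bp apart and had 7 and 8 reads in 8w replicate 1 and 10 each in 3d replicate 2. Agap1, a GTPase-activating protein of membrane traffic, and Bnc2, a zinc finger protein, had 3 members each with 46 reads. Macrod2, which removes ADP-ribose from proteins and lies in a fragile site, had 3 members with 39 reads in 1998 kb, all 98 to 145 bp long. Dab1, an adaptor of reelin signalling, had 3 members of 119 to 151 bp. Over all libraries, the distinct circles in these genes numbered 17 for Dock9, 39 for Agap1, 31 for Bnc2, 127 for Macrod2 and 87 for Dab1.

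The count of members for some genes rested on the annotation. The table listed 4 members for Fgfr2, but its model of that gene spans 2961 kb, against 104 kb in RefSeq, where Fgfr2 held 0 members. The longest member of the set, 3763 bp, was among these 4, and RefSeq places it in Fam53b. It had 2 reads in 8w replicate 3 and 3 in 3d replicate 3. The 3 members listed for Gm20388, a model of 4435 kb, and the 3 for A230046K03Rik were likewise placed elsewhere or under another name, the last in Washc4, a subunit of the WASH complex. With RefSeq, 645 members lay in 594 genes, and 59 genes held 2 or more.

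Members in genes of the heart lists were few, as were other circles. The lists below were chosen with earlier results of these data known. Each share is given beside that of all 92212 circles with 2 or more split reads in an 8w or 3d library and none in E18. The list of 19 genes of calcium handling and ion channels had 6 members in 5 genes, 0.412% of the set (0.189% to 0.895%), against 0.213%. The 24 sarcomere genes had 1 member (0.0686%, against 0.0640%), the 18 genes of fatty acid oxidation 1 (0.0686%, against 0.0499%), and the 21 DNA repair genes 3 (0.206%, against 0.0857%). The 17 fibroblast and matrix genes had 1 (0.0686%, against 0.0824%) and the 13 endothelial genes 1 (0.0686%, against 0.0846%). The lists of 18 cardiac transcription factors, 18 glycolysis genes, 22 cell cycle genes and 13 blood and immune genes had 0 of 1458 members. A count of 0 allows a share of up to 0.206%, against 0.124%, 0.0217%, 0.0325% and 0.0314% in that order. These counts cover the listed genes only, and Clspn and Anapc1, which held members above, were not in the lists. The 19 long neuronal and fragile-site genes had 10 members (0.686%, 0.373% to 1.26%), against 1.16%.

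Of the 6 members in ion channel and calcium genes, the 5 described here were 68 to 159 bp long. In Kcnq1, the potassium channel of the slow delayed rectifier current, an 89 bp circle had 33 split reads in 8w replicate 2 and 2 in 3d replicate 1. In Kcnd2, a channel of the transient outward current, a 103 bp circle had 25 reads in 8w replicate 2 and 9 in 3d replicate 3. Cacna2d1, an auxiliary subunit of voltage-gated calcium channels, held a 68 bp circle with 7 reads in 8w replicate 2 and 9 in 3d replicate 3, and a 112 bp circle with 9 reads in 8w replicate 3 and 3 in 3d replicate 1. Itpr2, a calcium release channel of intracellular stores, held a 159 bp circle with 7 reads in 8w replicate 2 and 3 in 3d replicate 1. Each of these 5 circles had its reads in exactly 1 adult and 1 neonatal library, and 4 of the 5 had more at 8w.

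In the other lists, Smyd1, a muscle-specific methyltransferase needed to build sarcomeres, held a 140 bp circle with 2 reads in 8w replicate 2 and 7 in 3d replicate 2. Esrrg, a nuclear receptor that drives mitochondrial genes, held one of 144 bp with 6 reads in 8w replicate 2 and 3 in 3d replicate 3. Among DNA repair genes, the kinase gene Atm held a 152 bp circle (2 reads in 8w replicate 2, 3 in 3d replicate 1), the recombination gene Rad51b a 95 bp circle (9 reads in 8w replicate 3, 2 in 3d replicate 1), and Xrcc5, a subunit of the end-binding protein Ku, a 599 bp circle (3 reads in 8w replicate 1, 2 in 3d replicate 3). Pdgfra, a growth factor receptor of fibroblasts, held a 122 bp circle with 7 reads in 8w replicate 2, against 12 and 2 in 3d replicates 2 and 3. Flt1, a receptor for vascular endothelial growth factor, held an 87 bp circle with 9 reads in 8w replicate 3 and 3 in 3d replicate 1.

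Among the long neuronal genes, Csmd1 held an 80 bp circle with 29 and 17 reads in 8w replicates 2 and 3 and 2 in 3d replicate 1, so it was among the few members above the minimum in 2 adult libraries. The 7 circles of this list in Dlg2, Macrod2, Nrxn3 and Csmd3 had 4 to 18 reads in their adult library and 2 to 7 in their neonatal one.

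Members overlapped another circle of their library more often than the other circles did, in 6 of 6 libraries. The share was 3.25% (8 of 246, 1.66% to 6.28%), 6.95% (56 of 806, 5.39% to 8.92%) and 5.67% (24 of 423, 3.84% to 8.30%) for members in 8w replicates 1 to 3, against 1.96%, 1.55% and 3.21% for the other circles. In 3d replicates 1 to 3 it was 7.97% (58 of 728, 6.21% to 10.2%), 15.9% (51 of 320, 12.3% to 20.3%) and 24.9% (114 of 457, 21.2% to 29.1%) for members, against 6.44%, 5.39% and 9.22%. The mean difference was 6.16 percentage points (SD 5.83, exact sign-flip p = 0.03125, the smallest possible, adjusted 0.188), so it did not pass. A measure alone at this p could not have passed. Without the libraries rich in single-read circles, an alternative chosen after the data were seen, the mean difference was 11.1 points over 4 libraries (exact sign-flip p = 0.125, the smallest that 4 libraries allow). Overlaps of a member with another member enter the members' share. With each pair counted from both sides, they numbered 4, 16 and 8 in the 8w replicates and 12, 4 and 12 in the 3d replicates. What such pairs add to the difference was not tested.

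**Figure D5:**
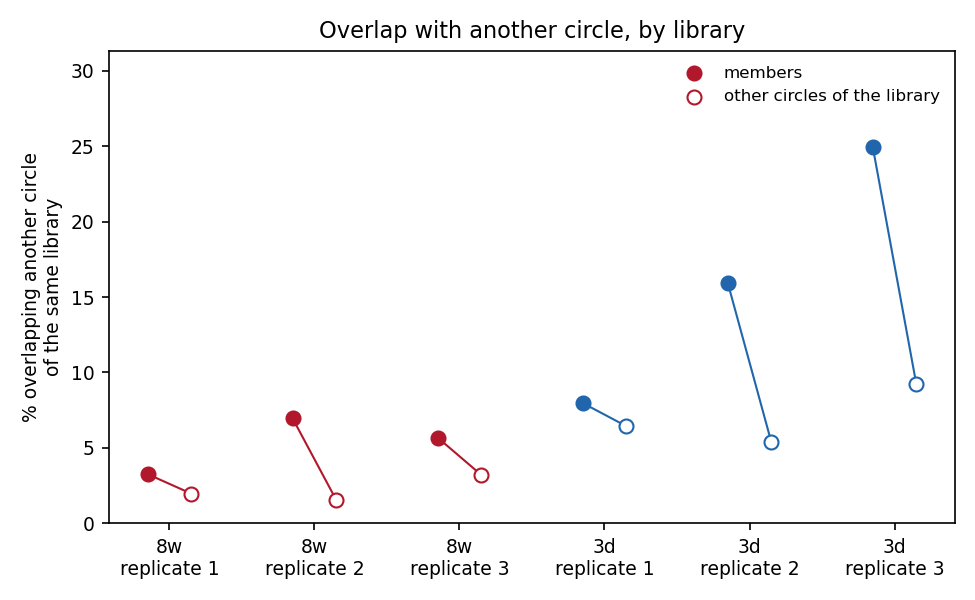
Percent of the members (filled) and of the other circles with 2 or more split reads and none in E18 (open) that overlap another circle of the same library, with 8w in red and 3d in blue. The members' value is the higher one in all 6 libraries, and the widest gaps are in 3d replicates 2 and 3.

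At 3d many of these members lay inside a longer circle. Nested in a longer circle of the same library were 6.32%, 10.9% and 18.6% of the members in 3d replicates 1 to 3, against 3.73%, 2.58% and 5.78% of the other circles. At 8w the share was 0.813%, 1.12% and 0.946% of the members, against 0.357%, 0.188% and 0.616%. Members in 3d libraries were shorter than the other circles there, and a short circle can lie inside a long one more easily; the part of length in this difference was not tested.

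Members overlapped each other in 14 pairs of 28 members (1.92%), and 13 of the pairs had an adult and a neonatal library in common. In 6 pairs both ends lay within 30 bp. The examples here were chosen after their values were seen. In Mmp16, a membrane-bound matrix protease, circles of 95 and 93 bp at chr4:18098909-18099003 and chr4:18098910-18099002 each had 26 reads in 8w replicate 2 and 2 in 3d replicate 1. In Slc29a3, a nucleoside transporter, circles of 93 and 91 bp each had 7 reads in 8w replicate 2, 1 in 8w replicate 3 and 3 in 3d replicate 2. In Cecr2, a bromodomain protein of a chromatin remodelling complex, circles of 208 and 228 bp had 35 and 20 reads in 8w replicate 2 and 2 each in 3d replicate 1. Such pairs count as separate members although their ends differ by 1 to 30 bp, and whether they are separate rings or one ring called with shifted ends was not tested.

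Near matches in E18 were rare. A near match was an E18 circle with other ends and at least 50% reciprocal overlap. Members with one numbered 0 of 246, 3 of 806 and 0 of 423 in 8w replicates 1 to 3 and 0 of 728, 1 of 320 and 3 of 457 in 3d replicates 1 to 3, and the counts of 0 allow shares of up to 1.22%, 0.709% and 0.412% in 8w replicate 1, 8w replicate 3 and 3d replicate 1. The mean difference from the other circles was 0.0349 percentage points (SD 0.239, exact sign-flip p = 0.812, adjusted 0.812). Joining ends within 5 bp joined 0 members to an E18 circle. Members had 2.19 E18 circles within 50 kb in the 8w libraries, against 2.14 for the other circles, and 2.17 in the 3d libraries, against 2.17, a mean difference of 0.0263 over the 6 libraries (SD 0.119, exact sign-flip p = 0.562, adjusted 0.788).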

How the data were processed

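Circle-seq counts of 9 libraries were used. Per the submitters' processing notes, the tools included bedtools 2.27.1, SAMtools 1.9, BWA 0.7.12 and cutadapt 1.9.1, the builds mm10 and GRCm38, and per the file headers eccDNA was identified with Circle-Map, of a version that the sources used here do not state. The deposited table holds the count of split reads per circle and library, as the authors counted them, beside the deposited circle length and gene overlap in bp. Its 154938 lines, 1 per circle and gene, were reduced to 149584 distinct circles. The 9 columns of normalized log2 values of the libraries were not used. Coordinates count from 1.

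The members, the gene lists and the naming rule were chosen with earlier results of these data known. The rule named the 10 members with the most reads, the 10 in the most libraries, those above the minimum in 2 libraries of both stages, the shortest and longest 3, those at a RefSeq gene start, those in a listed gene, and genes with 2 or more members (up to 15). A few genes that it took are not reported here. The lists held genes of calcium handling and ion channels, DNA repair, long neuronal and fragile-site genes, the sarcomere, the cell cycle, glycolysis, fatty acid oxidation, endothelium, blood and immune cells, fibroblasts and matrix, and cardiac transcription factors.

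Within each library, members were compared with the other circles having 2 or more split reads and 0 in E18, with exact two-sided sign-flip tests over 6 libraries (64 sign patterns), exact two-sided permutation tests of 3 against 3 libraries (smallest p 0.1), Benjamini-Hochberg adjustment and a threshold of 0.05. The procedure was tested on simulated data. For the sign-flip test these were drawn independently for each library, so the simulation does not cover the sharing of members between libraries. Replicate numbers were not taken to pair libraries across stages. Alternatives were other read minimums, thinning, end matching, left-out libraries, other overlaps and windows, and a replicate block. GC content and repeats at circle ends over all members were not analysed here, since no genome sequence was used. RefSeq genes (21896) and gene starts were those of GRCm38.p6. Software was bedtools 2.31.1 and Python 3.11.15 with SciPy 1.17.1, NumPy 2.4.6, matplotlib 3.10.9 and pandas 2.3.3.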

Additional observations from a re-analysis of the deposited data

Results flagged for a closer look

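The difference in median length between members and the other circles of their library had opposite signs at the stages, positive in all 3 libraries at 8w and negative in all 3 at 3d, and 8w minus 3d was 323 bp (exact permutation p = 0.1, the smallest that 3 against 3 libraries allow, adjusted 0.2). The share under 250 bp was likewise lower among members in every 8w library and higher in every 3d library, and 8w minus 3d was -85.8 percentage points (exact permutation p = 0.1, adjusted 0.2). Without 8w replicate 1 and 3d replicate 1 together, an alternative chosen after the data were seen, these values were 362 bp and -83.0 points (exact permutation p = 0.333 for both, with 2 against 2 libraries). A member of 1 stage's library had also to be found at the other stage, and the libraries of the stages differ in length. For both measures the opposition and the stages' own lengths cannot be told apart.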

How the results depend on the processing

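No test passed the threshold after adjustment, in the main setting or in the 238 alternatives over 16 results, but with 3 against 3 libraries (smallest p 0.1), 5 libraries (0.0625) or 4 libraries (0.125) none could pass, and the number of members has no test. With 6 libraries, a measure alone at the smallest p (exact sign-flip p = 0.03125) could not pass either, as it adjusts to 0.188 over 6 measures. The number of members (1458) depended on the read minimum and on single libraries. It was 5345 with 1 or more reads, 280 with 5 or more and 45 with every library thinned to 11377 split reads, and ran from 664 (without 8w replicate 2) to 1543 leaving out single libraries, with 771 without 3d replicate 1. The length difference from the other circles (-66.0 bp) changed sign without 3d replicate 1 (12.2 bp, range -144 to 12.2 bp leaving out single libraries). The difference in the share under 250 bp (9.20 points) was -1.03 with 1 or more reads and ran from -7.61 (without 3d replicate 1) to 26.7 leaving out libraries. The difference in gene share (1.61 points) was -0.885 with 5 or more reads and ran from 0.299 (without 8w replicate 2) to 2.96 leaving out libraries, and that from circles shared with E18 (-1.08 points) ran from -2.86 to 2.09 (without E18 replicate 1) leaving out libraries. The near-match difference (0.0349 points) was -0.256 against other circles regardless of E18, -0.0221 without chromosomes X and Y, -0.0671 for members in exactly 1 library of each stage and -0.0134 with at least 90% overlap, and ran from -0.217 (without 8w replicate 2) to 0.190 leaving out libraries. Its 8w minus 3d value (0.0587) was -0.0346 with 5 or more reads and ran from -0.0288 (without E18 replicate 1) to 0.252. The difference in E18 circles within 50 kb (0.0263) was -0.00671 with 1 or more reads and -0.0110 without 3d replicate 1 and 8w replicate 1 together, and ran from -0.0436 (without 3d replicate 1) to 0.0666. The members' length at 8w minus 3d (49.7 bp) was -170 bp weighted by split reads and ran from -6.67 (without 8w replicate 1) to 102 bp. The length difference from circles shared with E18 (-119 bp) ran from -160 to -55.8 bp (without 3d replicate 1). For these changes the cause was not tested. The difference in overlap with another circle was positive under all 16 alternatives (2.51 to 18.6 points) and ran from 3.76 to 8.57 points leaving out libraries.

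With the replicate number as a block, the members' length at 8w minus 3d was 49.7 bp (exact permutation p = 1.0, against 0.9 without the block). The labels do not say that the numbers mark shared animals, litters or days. The depth of 8w replicate 1 limits what the rule can find there, and 2 split reads is the weakest support the rule accepts.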
